A study of Homo sapiens with 6 samples.

Results

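Keratin genes encode the intermediate filament proteins of epithelial cells, and they were described here in lung cancer cells that had become resistant to a kinase inhibitor and in the cells they came from. A gene was taken as a keratin gene where its symbol was KRT followed by a number and, in some, a letter from A to C, which leaves out keratin-associated proteins and pseudogenes. This rule gave 55 of the 26485 genes in the authors' deposited table. Of the 55, 31 had reads and 24 were listed at 0. An adjusted p-value was given for 22 per the authors' deposited table. The other 9 genes with reads had at most 5 reads each over all libraries.

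Polyadenylated RNA of PC9, a line of human lung adenocarcinoma that depends on a mutant and active EGFR, was sequenced from the 3′ end. The resistant group was 3 libraries of PC9DR cells, which carry the label dacomitinib resistant and were in 100 nM dacomitinib, a covalent inhibitor of EGFR-family kinases. They had been derived from PC9 by raising the drug from 1 pM to 100 nM over 6 months. The parental group was 3 libraries of untreated PC9 cells. No genotype beyond the cell line is given, the labels name a single resistant line and do not say whether it was cloned, and resistance and drug presence cannot be told apart. Separate cultures are not stated for the numbered libraries of a group, so the p-values speak to the spread of these samples alone, which may be technical.

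Keratins are of type I or type II, and a filament is built from pairs that join a protein of each type, so that an epithelial cell carries transcripts of both. Simple epithelia such as the lung lining use KRT8 with KRT18 and KRT7 with KRT19, and lung adenocarcinomas usually carry these. Stratified epithelia use KRT5 with KRT14 in the basal layer and other pairs above it, injured or activated epithelium turns on KRT6, KRT16 and KRT17, and a further set builds hair and nail. Keratin transcripts and proteins are therefore widely read as marks of the kind and state of an epithelial cell.

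Whole reads of each library were recovered from the mean counts and fold changes of the authors' deposited table. Per-library values are normalized counts, which are reads divided by the size factor of the library. They are listed in the order of size factors 1.06, 1.19 and 1.37 for the resistant libraries and 0.539, 1.03 and 1.08 for the parental libraries, and means carry the SD of 3 libraries. A library could not be tied to a replicate number. No header gives the direction of the fold change, which was read as resistant over parental from the design, and every direction below rests on that reading. Libraries of this kind count 3′ ends, so a normalized count does not scale with transcript length, although a gene whose 3′ end is poorly annotated can be undercounted.

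Near-identical keratins can share reads, and the ends of their coding sequences show where a 3′ read can tell them apart. KRT6A and KRT6B agreed at 97.5% of aligned coding bases and KRT81 and KRT86 at 90.7%. The last 60 coding bases of each are printed 5′ to 3′ from GENCODE 29 transcripts, with capitals at the bases at which the members of a pair differ.
KRT6A: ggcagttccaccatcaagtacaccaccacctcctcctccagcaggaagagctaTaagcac
KRT6B: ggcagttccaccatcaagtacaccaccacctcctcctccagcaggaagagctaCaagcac
KRT81: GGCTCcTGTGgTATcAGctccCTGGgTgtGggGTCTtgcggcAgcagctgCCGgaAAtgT
KRT86: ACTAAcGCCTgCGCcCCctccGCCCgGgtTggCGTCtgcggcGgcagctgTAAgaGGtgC
The KRT6A and KRT6B ends differed at 1 base of 60. Past the last coding base, stop codon included, they agreed at 63.9% of aligned bases, so a read that lies there can be placed. The KRT81 and KRT86 ends differed at 31 of 60 bases, set side by side without gaps. Past the last coding base KRT81 and KRT86 agreed at 45.6% of aligned bases. KRT6C, listed at 0, shared 98.5% of coding bases with KRT6B and 97.9% with KRT6A. Past the last coding base it shared 64.5% of aligned bases with KRT6B and 87.8% with KRT6A. Whether reads with several matches were kept is not given in the sources used here, and the values of KRT6A, KRT6B, KRT81 and KRT86 are uncertain to that extent.

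RefSeq promoters (GRCh38.p14, 250 bases before to 50 after the gene start) were at hand for 34 of the 55 keratin genes, of which 4 were called, meaning that they passed an adjusted p of 0.05. The last 100 bases before the start of those 4 are printed, since they include both directions of change, and capitals mark the letters TATAAA.
KRT34, chr17:41382307-41382406, minus strand: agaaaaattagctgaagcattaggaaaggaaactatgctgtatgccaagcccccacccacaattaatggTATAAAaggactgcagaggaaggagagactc
KRT5, chr12:52520395-52520494, minus strand: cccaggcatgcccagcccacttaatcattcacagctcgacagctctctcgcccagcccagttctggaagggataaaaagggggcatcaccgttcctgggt
KRT4, chr12:52814117-52814216, minus strand: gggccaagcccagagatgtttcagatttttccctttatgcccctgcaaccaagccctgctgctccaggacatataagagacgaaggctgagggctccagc
KRT8, chr12:52926470-52926569, minus strand: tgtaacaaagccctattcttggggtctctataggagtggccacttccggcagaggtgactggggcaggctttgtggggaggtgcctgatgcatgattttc
The letters TATAAA, the core of the TATA box, were found on either strand in 20 of the 34 keratin promoters and in 12% of all 27305 promoters of the table. KRT34, which was higher in resistant cells, held a match that starts 31 bases before its RefSeq gene start. KRT5, KRT4 and KRT8, which were lower, held no exact match in their 300 bases. The printed stretches of KRT5 and KRT4 do hold gataaa and tataag, each a letter away. The GENCODE spans of KRT34, KRT5, KRT4 and KRT8 run on to 41382403, 52520687, 52814551 and 52949954, so all these RefSeq starts differ from the GENCODE ones. The TATAAA of KRT34 lies inside its GENCODE span. Matches were also held by 2 of 4 genes that did not pass and 17 of 26 not tested. These few called genes do not show a difference by direction. TGANTCA, the AP-1 letters, which read the same on both strands, were found in 0 of 34 keratin promoters and in 7.76% of all promoters. The motifs cannot overlap, and a match is a description of letters only.

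An adjusted p of 0.05 was passed by 16 of the 22 tested keratin genes, 72.7%, beside 28.2% of the 13494 genes tested per the authors' deposited table. There were 6 higher in resistant cells (KRT7, KRT17, KRT34, KRT80, KRT81 and KRT86), where 13.3% of all tested genes were higher. There were 10 lower (KRT4, KRT5, KRT6A, KRT6B, KRT8, KRT13, KRT15, KRT16, KRT18 and KRT23), where 14.8% of all tested genes were lower. A difference of at least 2-fold was called for 12 keratin genes, beside 10.2% of all tested genes. KRT9, KRT10, KRT19, KRT32, KRT33B and KRT78 did not pass. The median log2 fold change of the 22 was -0.40 per the authors' deposited table, against 0.02 over all tested genes. These counts describe the genes that had enough reads to be tested, and the 33 that did not are in none of them. In all 16 called genes the 3 resistant and the 3 parental values did not overlap, as in 1 of the 6 genes that did not pass. The same share over all tested genes was not computed, so this count has no background.

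**Figure D1:**
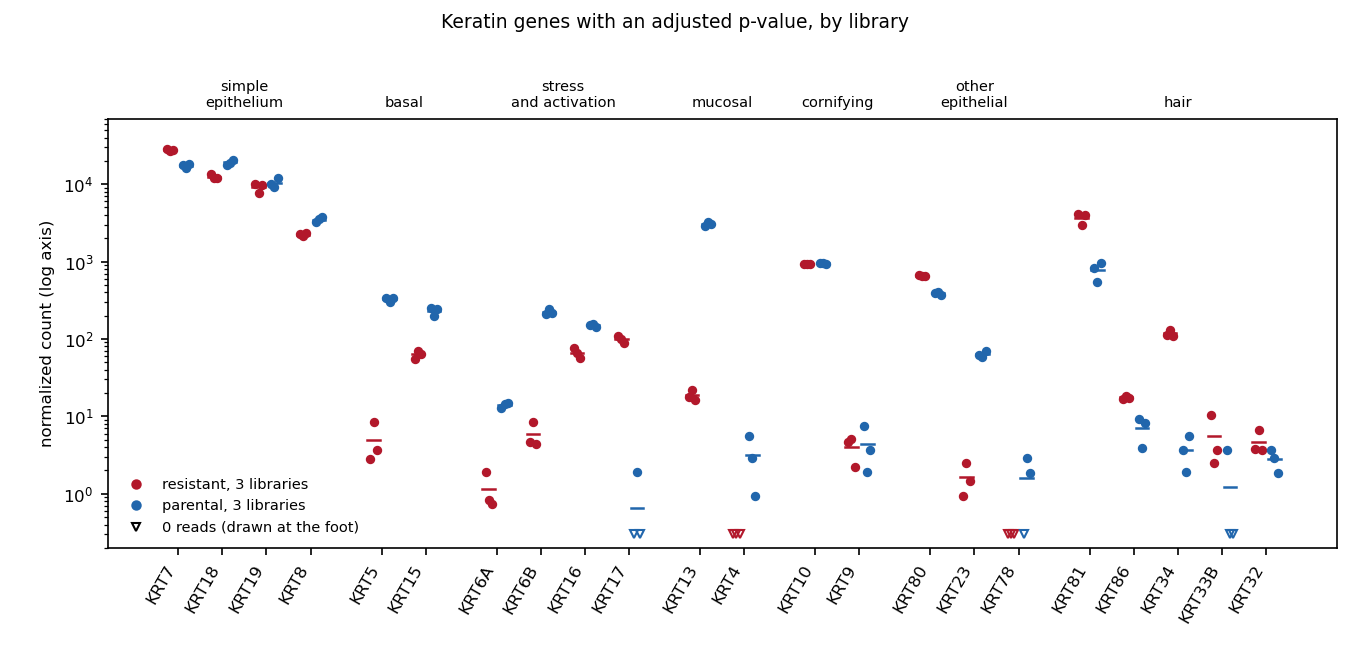
Normalized counts (log axis) of the 22 keratin genes with an adjusted p-value, grouped by role; each point is a library, resistant in red on the left of each gene and parental in blue on the right, with the mean as a line and libraries with 0 reads as open triangles at the foot. KRT7 lies at 27085 to 28843 in resistant and 16272 to 18159 in parental libraries, while KRT13 lies at 16.0 to 21.9 in resistant and 2895 to 3246 in parental libraries.

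Epithelial genes were present and lung lineage markers were at or near 0. All 7 genes of the epithelial check list had reads. They include KRT8, KRT18 and KRT19, so the list is in part the keratins themselves. Their summed normalized count was 32554 to 36515 in resistant and 40562 to 45902 in parental libraries, without overlap. Of the lung adenocarcinoma list, NKX2-1 and SFTPC were listed at 0 and the summed normalized count of the 5 genes was 2.92 to 5.05 in resistant and 0 to 1.85 in parental libraries. The 10 fibroblast markers summed to 651 to 699 in resistant libraries and 1.84 to 7.42 in parental libraries. PDGFRB and COL1A1 carried nearly all of that sum, while 6 of the 10, COL1A2, DCN, LUM, PDGFRA, THY1 and POSTN, were listed at 0. The 8 leukocyte markers summed to 157 to 184 in resistant and 158 to 184 in parental libraries, almost all of it CD68, and PTPRC was listed at 0. The 5 endothelial markers summed to 12.2 to 16.8 in resistant and 32.3 to 40.8 in parental libraries. Most of that sum was CDH5, and VWF, KDR and TEK were listed at 0. The part of the fibroblast and endothelial genes in the keratin results was not tested, and in bulk RNA fewer cells of a type and less RNA per cell cannot be told apart.

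The summed keratin level was about the same in both groups, but its make-up was not. All keratins together reached 60777, 53870 and 57478 normalized counts in resistant libraries and 54806, 54187 and 60764 in parental libraries. The ranges overlapped, with means of 57375 ± 3455 in resistant and 56586 ± 3632 in parental cells. Keratins made up 1.44% of the summed mean counts of all genes per the authors' deposited table. Type II keratins summed to 34366 ± 1543 in resistant and 22527 ± 1237 in parental cells, without overlap. Type I keratins summed to 23009 ± 1915 in resistant and 34059 ± 2540 in parental cells, again without overlap.

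The ratio of type II to type I normalized counts stood at 1.45, 1.56 and 1.48 in resistant libraries and at 0.695, 0.648 and 0.643 in parental libraries. KRT7 was the largest contributor. Without KRT7 the ratio was 0.285, 0.274 and 0.30 in resistant libraries against 0.155, 0.153 and 0.152 in parental libraries. Of the type II counts left, KRT81 had means of 3684 in resistant and 776 in parental cells. KRT8 went the other way, with means of 2225 and 3486. The ratio without both KRT7 and KRT81 was not computed, so a shift beyond these genes is not shown. Of the tested type I genes 2 were called higher and 5 lower, with 5 not passing, and of the type II genes 4 higher and 5 lower, with 1 not passing. Beside these counts, 13.3% of all tested genes were higher and 14.8% lower. The summed normalized counts by type follow the most abundant genes, and the counts of genes do not show such a split.

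**Figure D2:**
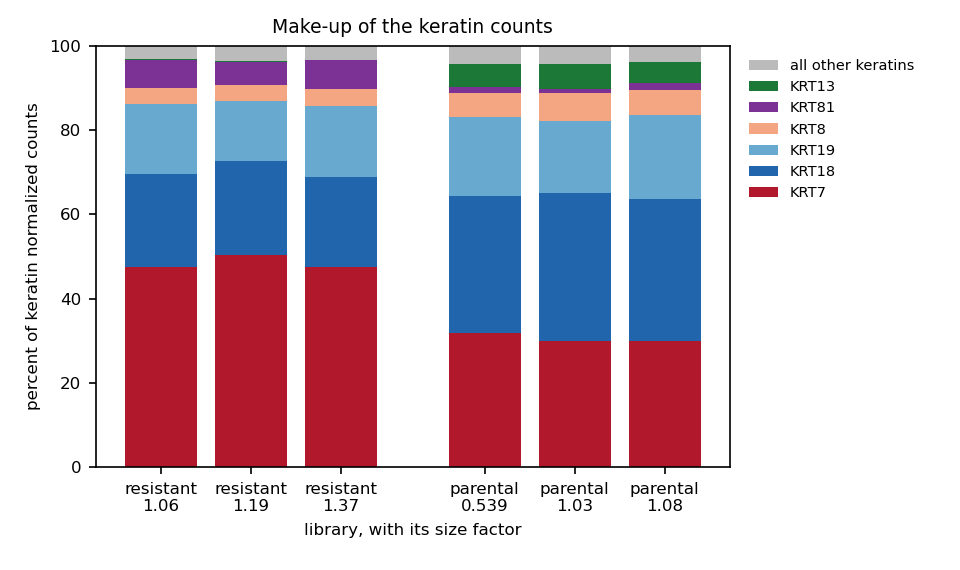
Share of each keratin (percent of all keratin normalized counts) in the 3 resistant libraries on the left and the 3 parental libraries on the right, each named by its size factor. KRT7 holds 47.5% to 50.3% in resistant and 29.9% to 31.9% in parental libraries, and KRT13, visible in parental libraries at 4.99% to 5.99%, holds under 0.1% in resistant libraries.

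The keratins of simple epithelium made up most of the keratin reads, 89.7% to 90.7% in resistant and 88.7% to 89.6% in parental libraries. KRT7, a type II keratin of ducts, glands and airways at chromosome 12, from 52232520 to 52252186, had 28843, 27085 and 27375 normalized counts in resistant libraries and 17474, 16272 and 18159 in parental libraries. Every resistant library exceeded every parental one. The log2 fold change of KRT7 was 0.68 ± 0.06 (SE; adjusted p = 5.22e-29) per the authors' deposited table, a 1.60-fold difference. KRT7 held 48.5% ± 1.58 of keratin counts in resistant and 30.6% ± 1.11 in parental cells.

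KRT8 and KRT18, the first keratin pair of the embryo and the common pair of simple epithelia, fell together. KRT18, type I, had 13484, 12033 and 12147 normalized counts in resistant libraries and 17852, 18956 and 20574 in parental libraries. KRT8, type II, had 2251, 2110 and 2314 in resistant libraries and 3207, 3532 and 3718 in parental libraries. All parental libraries lay above all resistant ones for both genes. The log2 fold change was -0.61 ± 0.07 for KRT18 (adjusted p = 1.02e-17) and -0.65 ± 0.07 for KRT8 (adjusted p = 1.32e-18) per the authors' deposited table. The ratio of KRT8 to KRT18 counts was 0.178 ± 0.012 in resistant and 0.182 ± 0.00359 in parental cells, and the libraries overlapped. The spans of KRT8 and KRT18 share 1084 bases on opposite strands, and whether counting used strand is not given in the sources used here.

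KRT19, the smallest keratin and a type I partner of KRT7, had 10047, 7658 and 9729 normalized counts in resistant libraries and 10140, 9291 and 11968 in parental libraries. The groups overlapped. Its log2 fold change of -0.19 ± 0.16 did not pass (adjusted p = 0.427) per the authors' deposited table, and its 95% interval ran from -0.51 to 0.12. The ratio of KRT7 to KRT19 counts was 2.87, 3.54 and 2.81 in resistant libraries against 1.72, 1.75 and 1.52 in parental libraries, without overlap. KRT20, a keratin of gut and urothelium, was listed at 0.

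**Figure D3:**
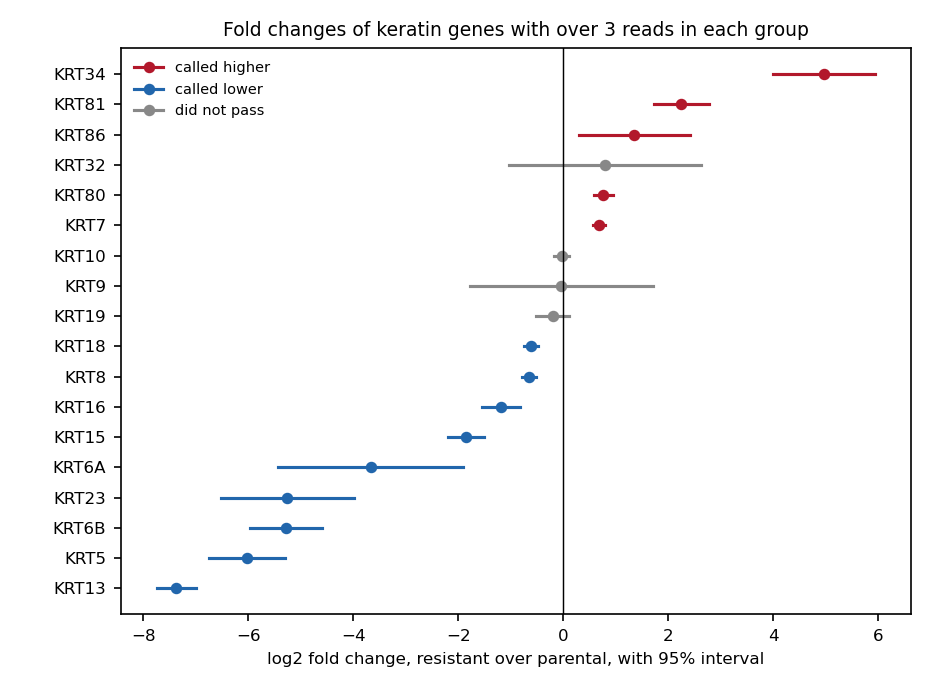
Log2 fold change, resistant over parental, of the 18 keratin genes with over 3 reads in each group, with 95% normal intervals from the standard errors of the authors' deposited table. KRT34 stands highest at 4.97 and KRT13 lowest at -7.37, and the intervals of KRT10, KRT9, KRT19 and KRT32 include 0.

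Both keratins of stratified mucosa fell, KRT13 with many reads and KRT4 with few. KRT13, a type I keratin of the upper layers of non-cornifying epithelium such as the oesophagus, lies at chromosome 17 from 41500981 to 41505705. It had 17.9, 21.9 and 16.0 normalized counts in resistant libraries and 2895, 3246 and 3035 in parental libraries. KRT13 held 0.0326% ± 0.00695 of keratin counts in resistant and 5.42% ± 0.512 in parental cells. Its log2 fold change was -7.37 ± 0.19, with an adjusted p listed as 0, per the authors' deposited table. KRT4, its type II partner, had 0 reads in each resistant library and 3, 3 and 1 reads in the parental libraries. Against a floor of 3 reads over the resistant libraries KRT4 was at least 3.18-fold lower in resistant cells. KRT4 passed narrowly per the authors' deposited table (adjusted p = 0.0486), and the call ended when p-values were adjusted over every gene with a p-value (adjusted p = 0.0571) or when folds were centred on the median of well-expressed genes (adjusted p = 0.0506). KRT13 was thus present in parental cells with few reads of its usual partner.

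The basal keratins were low in resistant cells. KRT5, the type II keratin of basal cells, had 2.82, 8.42 and 3.64 normalized counts in resistant libraries and 339, 298 and 336 in parental libraries. The groups lay far apart, with a log2 fold change of -6.03 ± 0.36 (adjusted p = 5.64e-59) per the authors' deposited table. The log2 ratio of the group means was -6.65 without the resistant library of size factor 1.19 and -6.03 with all libraries. KRT15, a type I keratin of basal cells and hair bulge stem cells, had 54.5, 70.7 and 64.1 normalized counts in resistant libraries and 250, 197 and 242 in parental libraries. Its log2 fold change was -1.85 ± 0.17 (adjusted p = 4.68e-25) per the authors' deposited table. KRT14, the usual partner of KRT5, had 0 reads in the resistant libraries and 0, 3 and 1 reads in the parental libraries, and no adjusted p. In parental cells KRT15 was therefore the more abundant of the type I basal keratins. Summed over KRT5, KRT14 and KRT15, the basal keratins reached 68.1 ± 10.9 normalized counts in resistant and 555 ± 49.9 in parental cells.

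The keratins of stress and activation went in opposite directions. KRT6B, a type II keratin induced by wounding, had 4.70, 8.42 and 4.37 normalized counts in resistant libraries and 211, 241 and 219 in parental libraries. KRT6A, its near-identical neighbour, had 1.88, 0.842 and 0.729 in resistant libraries and 13.0, 14.5 and 14.8 in parental libraries. KRT16, the type I partner of KRT6A, had 76.1, 65.6 and 56.9 in resistant libraries and 152, 156 and 141 in parental libraries. For each of these genes all parental libraries exceeded all resistant ones. The log2 fold changes were -5.27 ± 0.35 for KRT6B (adjusted p = 2.55e-49), -3.67 ± 0.90 for KRT6A (adjusted p = 0.000311) and -1.18 ± 0.18 for KRT16 (adjusted p = 2.41e-09) per the authors' deposited table.

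KRT17, a type I keratin of activated and basal-like epithelium, went the other way. It had 116, 120 and 121 reads in the resistant libraries, or 109, 101 and 88.2 normalized counts. The parental libraries held 0, 2 and 0 reads. The ratio of resistant to parental levels was 131, with an exact 95% interval from counting error alone of 36.0 to 1085. The adjusted p was 9.19e-11 per the authors' deposited table. Without the parental library of size factor 1.03, which held both parental reads, the parental group had 0 reads. KRT16 and KRT17 are neighbours on chromosome 17, from 41609778 to 41615899 and from 41619441 to 41624842, and were called in opposite directions. In sum the stress keratins reached 173 ± 21.0 normalized counts in resistant and 388 ± 21.8 in parental cells, and KRT17 was the most abundant of them in resistant cells and KRT6B in parental cells.

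The keratins of cornifying epidermis did not pass. KRT10, a type I keratin of the upper epidermis, had 931, 930 and 925 normalized counts in resistant libraries and 959, 954 and 935 in parental libraries. These values do not overlap, yet the log2 fold change was -0.03 ± 0.07 (adjusted p = 0.83) per the authors' deposited table, and its 95% interval ran from -0.18 to 0.12. KRT1, its type II partner, was listed at 0, and KRT2 had 1 read in all. KRT9, of palm and sole skin, had 2 to 6 reads in every library of both groups and did not pass (adjusted p = 0.985 per the authors' deposited table).

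Other epithelial keratins were called in each direction. KRT80, a type II keratin found near desmosomes in many epithelia, had 670, 659 and 644 normalized counts in resistant libraries and 395, 399 and 371 in parental libraries. It rose by 0.76 ± 0.09 (adjusted p = 1.00e-14) on the log2 scale per the authors' deposited table. KRT23, a type I keratin of epithelial cells, had 0.94, 2.52 and 1.46 in resistant libraries and 61.2, 59.0 and 69.2 in parental libraries. It fell by 5.26 ± 0.65 (adjusted p = 1.27e-14) on the log2 scale per the authors' deposited table. KRT78, a type II keratin of stratified epithelium, had 0 reads in the resistant libraries and 0, 3 and 2 in the parental libraries, and did not pass (adjusted p = 0.254 per the authors' deposited table).

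Hair keratins, which build the hair shaft and nail, were called higher in 3 of 5 tested genes and lower in none. Over all genes tested, 13.3% were higher and 14.8% lower. KRT81, a type II hair keratin at chromosome 12, from 52285913 to 52291534, had 4133, 2950 and 3967 normalized counts in resistant libraries and 818, 548 and 962 in parental libraries. The groups did not overlap, and the log2 fold change was 2.25 ± 0.27 (adjusted p = 1.28e-15) per the authors' deposited table, a 4.75-fold difference. At that level KRT81 exceeded KRT8 in each resistant library. Its coefficient of variation was 17.4% in resistant and 27.1% in parental libraries, the highest among keratins with a mean normalized count over 100 in both groups. KRT34, a type I hair keratin at chromosome 17, from 41377650 to 41382403, had 112, 132 and 111 normalized counts in resistant libraries and 3.71, 1.93 and 5.53 in parental libraries. Its log2 fold change was 4.97 ± 0.50 (adjusted p = 7.57e-22) per the authors' deposited table.

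The other hair keratins were low. KRT86 had 18, 22 and 24 reads in the resistant libraries and 5, 4 and 9 in the parental libraries, with a log2 fold change of 1.36 ± 0.54 per the authors' deposited table. Its adjusted p was 0.0444 per the authors' deposited table. The adjustment over every gene with a p-value gave 0.0522, which ended the call. KRT86 resembles KRT81 in sequence, as shown above, and its long annotated span shares 5622 bases with KRT81 on the opposite strand and 2887 bases with KRT7. KRT81 had 244, 159 and 227 times the count of KRT86 in resistant libraries and 88.2, 142 and 116 times in parental libraries. The part of KRT81 reads in the KRT86 count was not tested. KRT33B had 11, 3 and 5 reads in the resistant libraries and 2, 0 and 0 in the parental libraries, a ratio of 6.97 with an exact 95% counting interval of 1.68 to 61.7, and did not pass (adjusted p = 0.12 per the authors' deposited table). The log2 ratio of its group means was 2.15, and 1.32 without the resistant library of size factor 1.06, while no parental reads remained without the parental library of size factor 0.539. KRT32 had 4, 8 and 5 reads in resistant and 2, 3 and 2 in parental libraries and did not pass either (adjusted p = 0.612 per the authors' deposited table). KRT83 had 1, 1 and 3 reads in the resistant libraries, 0 in the parental libraries and no adjusted p. Together the hair keratins held 7.04%, 5.78% and 7.14% of keratin counts in resistant libraries, against 1.53%, 1.03% and 1.61% in parental libraries.

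The remaining keratins were at or near 0. KRT3, KRT36, KRT37, KRT71, KRT74 and KRT75 had 1 or 2 reads each over all libraries. Those listed at 0 were KRT1, KRT6C, KRT12, KRT20, KRT24, KRT25, KRT26, KRT27, KRT28, KRT31, KRT33A, KRT35, KRT38, KRT39, KRT40, KRT72, KRT73, KRT76, KRT77, KRT79, KRT82, KRT84, KRT85 and KRT222. They include all 4 type I keratins of the inner root sheath of hair. Absence cannot be read from a count of 0 in these libraries.

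Set out by pair, partners moved alike in some pairs and apart in others. KRT8 and KRT18 were both lower, as were KRT6A and KRT16, and KRT4 and KRT13. The pairs that parted were KRT7 with KRT19, where KRT7 alone passed, and KRT6B with KRT17, which were called in opposite directions. KRT5 and KRT14, KRT1 and KRT10, and KRT3 and KRT12 each had a partner with at most 4 reads in all. The ratio of KRT6A to KRT16 counts stood at 0.0247, 0.0128 and 0.0128 in resistant libraries and 0.0854, 0.0932 and 0.105 in parental libraries.

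All 55 keratin genes lie in a pair of clusters (GRCh38, GENCODE 29). The cluster on chromosome 12, from 52168996 to 52952901, holds 27 genes, all type II except KRT18. That on chromosome 17, from 40654665 to 41624842, holds 28. On chromosome 12 the directions fell into separate stretches. KRT80, KRT7, KRT86 and KRT81, the 4 genes called higher, lie between 52168996 and 52309163. The 6 genes called lower, KRT6B, KRT6A, KRT5, KRT4, KRT8 and KRT18, lie from 52446651 to the end of the cluster. On chromosome 17 the directions were interspersed, with KRT34 and KRT17 higher and KRT23, KRT13, KRT15 and KRT16 lower. This arrangement was noticed after the values were seen and was not tested.

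**Figure D4:**
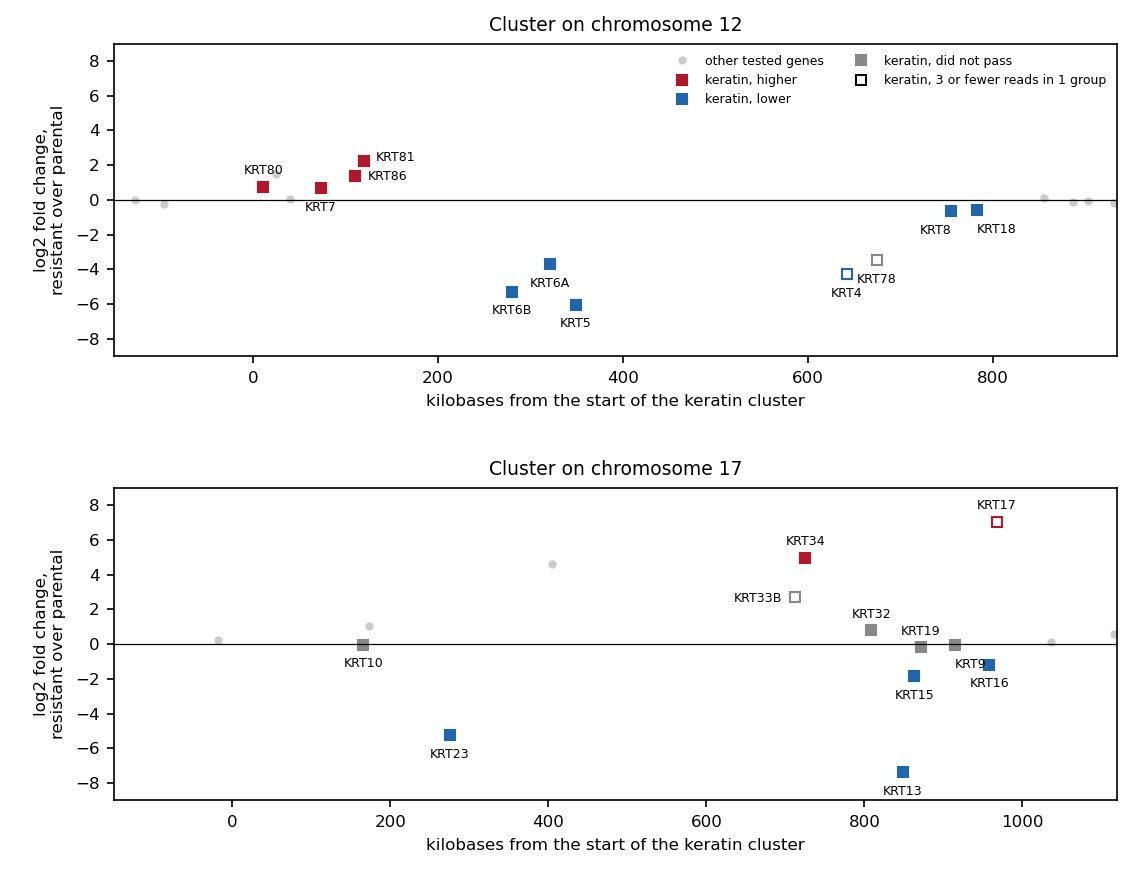
Log2 fold change, resistant over parental, of tested keratin genes (squares) and of other tested genes (grey dots) against the distance in kilobases from the start of the keratin cluster on chromosome 12 (top) and chromosome 17 (bottom); open squares had 3 or fewer reads in 1 group. On chromosome 12 the 4 higher keratins lie left of the 6 lower ones, and on chromosome 17 higher and lower keratins are interspersed.

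Genes beside the clusters were called in both directions. Within 1 Mb of the chromosome 12 cluster, 4 of 35 tested genes that are not keratins were higher and 7 lower per the authors' deposited table, with a median log2 fold change of -0.03. Within 1 Mb of the chromosome 17 cluster, 8 of 50 were higher and 9 lower, with a median of 0.03, per the authors' deposited table. Over all tested genes, 13.3% were higher and 14.8% lower. Inside the clusters, neither of the 2 other tested genes on chromosome 12 passed, and 1 of 2 on chromosome 17 was higher.

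The other intermediate filament genes and the junctions that hold keratin filaments were set beside the keratins, from lists of genes chosen for their known roles. Of 13 tested intermediate filament genes outside the keratins, 4 were higher and 2 lower per the authors' deposited table, beside 13.3% higher and 14.8% lower of all tested genes, and the list median was -0.06. VIM, the filament protein of mesenchymal cells, had 708, 676 and 672 normalized counts in resistant libraries and 57.5, 54.2 and 60.9 in parental libraries. It rose by 3.57 ± 0.15 on the log2 scale per the authors' deposited table (adjusted p = 1.71e-124). Set against the keratin sum, VIM was 1.16%, 1.25% and 1.17% of it in resistant and 0.105%, 0.10% and 0.10% in parental libraries. The nuclear lamin genes LMNB1 (-0.86 ± 0.17) and LMNA (-0.47 ± 0.08) fell per the authors' deposited table.

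Desmosomes, which anchor keratin filaments at cell contacts, were mixed. Of 8 tested genes 2 were higher and 3 lower per the authors' deposited table, where 28.2% of all tested genes were called in either direction, and the list median was 0.00. JUP (0.57 ± 0.09), the plakoglobin gene, and DSP (0.40 ± 0.13), which links keratin to the plaque, rose per the authors' deposited table. EVPL (-0.90 ± 0.19) and PPL (-0.81 ± 0.16), plakins of the cornified envelope, and PKP2 (-0.56 ± 0.20), a plaque protein, fell per the authors' deposited table. The desmosomal cadherin genes DSC1, DSC3, DSG1, DSG3 and DSG4 were listed at 0.

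Hemidesmosomes, which tie keratin filaments to the basement membrane, had 6 genes higher and 3 lower of 9 tested per the authors' deposited table, and the list median was 0.69. Of all tested genes, 13.3% were higher and 14.8% lower. LAMA3 (0.92 ± 0.09), a chain of the laminin ligand, and DST (0.83 ± 0.14), a plakin, rose per the authors' deposited table. The integrin genes ITGA6 (-1.23 ± 0.07) and ITGB4 (-0.24 ± 0.08), and PLEC (-0.56 ± 0.07), the plakin that binds keratin inside, fell per the authors' deposited table. ITGA6 had 683, 740 and 706 normalized counts in resistant libraries and 1714, 1665 and 1636 in parental libraries, without overlap.

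Of 21 tested genes for regulators of keratin genes, 5 were higher and 7 lower per the authors' deposited table, set against 13.3% and 14.8% of all tested genes, and the list median was -0.22. TP63, the master factor of basal cells, had 24, 31 and 42 reads in resistant libraries and 0 in each parental library, at least 23.7-fold higher against a floor of 3 reads over the parental libraries. Its adjusted p was 3.2e-07 per the authors' deposited table, while the basal keratins KRT5 and KRT15 were lower in the same libraries. GRHL1 (-2.76 ± 0.23), OVOL1 (-1.93 ± 0.19) and EHF (-1.57 ± 0.26), factors of epithelial differentiation, fell per the authors' deposited table. OVOL2 (0.55 ± 0.21) and ESRP2 (0.40 ± 0.11) rose per the authors' deposited table. GRHL1 had 19.7, 25.2 and 25.5 normalized counts in resistant libraries and 172, 169 and 141 in parental libraries.

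Of 8 tested genes for proteins that bind keratin filaments, 1 was higher and none lower per the authors' deposited table, and the list median was -0.08. That count is near the background of 13.3% higher among all tested genes. TRADD, a death-domain adaptor that binds KRT14 and KRT18, rose by 0.55 ± 0.10 on the log2 scale (adjusted p = 1.04e-06) per the authors' deposited table. EPCAM, an epithelial adhesion molecule, rose by 0.31 ± 0.05 per the authors' deposited table, with 6950, 7146 and 6913 normalized counts in resistant and 5783, 5553 and 5661 in parental libraries. CDH1, the adherens junction cadherin, had 239, 323 and 265 normalized counts in resistant and 295, 306 and 331 in parental libraries, which overlapped, and did not pass (adjusted p = 0.353 per the authors' deposited table).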

How the data were processed

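The authors trimmed, aligned, counted and tested with cutadapt, STAR, HTSeq and DESeq2 on GRCh38 (hg38), per the submitters' processing notes. Versions and parameters are not given in the sources used here. Per the labels' protocols, libraries were a modified bulk MARS-seq with barcoded reverse transcription, pooling and in vitro transcription, and whether molecular barcodes were collapsed is not given in the sources used here. The deposited file is the authors' own comparison. Per the file headers it holds for each gene a mean normalized count (a signal, the average of the libraries), a log2 fold change with its standard error, the Wald statistic (a score), a p-value and an adjusted p-value. Calls are those of the authors' two-sided Wald test with Benjamini-Hochberg adjusted p-values under 0.05 over 13494 genes, and 95% intervals are normal intervals from the deposited standard errors.

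Reads per library were recovered as follows. A mean count is the sum of reads over size factors divided by the number of libraries, and genes with 1 read in 1 library give the 6 size factors. Whole-read combinations that matched a deposited mean within the rounding of its last digit were listed within a search range. They were screened with a quick fit, and a short list of the closest was refitted with a full negative binomial model. The combination whose fold came closest to the deposited fold was kept. All 31 keratin genes with reads were recovered, with a fold error of at most 3.29e-14. It was at least 5.97e-10 for any other combination on the short list, and those outside the list were not refitted. All 433 other genes tried gave a match, but they served to refine the size factors and are no independent check. On simulated data 200 of 200 genes were recovered exactly. Recovery of the most abundant keratins was not tested on such data. Among them, KRT7, KRT18 and KRT19 had 61880770, 181273588 and 181526243 listed combinations that matched the deposited mean, of which only the short list was refitted. Summed over libraries, keratin genes had 207519 reads in resistant and 151460 in parental libraries. A count test on recovered reads of all genes was not run. Depth per library was not stated, counting intervals are exact (Clopper-Pearson) and cover counting error only, and floors use 3 reads over a group.

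Keratin genes and gene lists were chosen with earlier results of these data known. The genes named are every keratin with an adjusted p, the 3 largest rises and falls per companion list among called genes with a mean count of at least 50, and VIM, TP63, CDH1 and EPCAM, without a few companion genes left out of the text. Gene coordinates are those of GENCODE 29. Alternatives were a stricter adjusted p (0.01), a 2-fold minimum, adjustment over every gene with a p-value, a mean count of at least 10, centring on the median fold of genes with a mean count of at least 50 (-0.03), other windows, and leaving out each library. The plan was written for the deposited comparison, with a count test only where counts per sample were given. Scripts used Python 3.11.15, numpy 2.4.6, scipy 1.17.1, numba 0.67.0 and biopython 1.88.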

Additional observations from a re-analysis of the deposited data

How the results depend on the processing

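The 6 higher and 10 lower keratin calls gave counts within 1.5 times of these under each alternative tried. KRT4 and KRT86 lost their call at an adjusted p under 0.01 and when adjusted over every gene with a p-value, and KRT4 also after centring. KRT7, KRT8, KRT18 and KRT80 were under the 2-fold minimum. Leaving out each library in turn, as values with no test, could not turn the direction of a called keratin, because their groups did not overlap. It therefore shows only how far a fold moved, at most by 0.62 on the log2 scale (KRT5) among called keratins where a ratio could be formed. KRT4, with 0 reads in each resistant library, gave no such ratio. Nor did KRT17 without the parental library of size factor 1.03, which held all its parental reads. With a group mean under 1 set to 1, the median fold was -0.59 for type II genes, against -2.05, and -4.47 for KRT4 and KRT13, against -5.82. At an adjusted p under 0.01, 1 desmosome gene was higher, against 2. Near the chromosome 12 cluster, a window of 0.5 Mb held 1 higher and 4 lower genes of 22, and a window of 2 Mb held 11 higher genes of 57, against 4 and 7 of 35 at 1 Mb. Near the chromosome 17 cluster, a window of 0.5 Mb held 3 higher genes of 24 and a window of 2 Mb held 15 of 90, against 8 of 50 at 1 Mb. These windows hold fewer or more genes by construction. No paired analysis was possible because the recovered reads carry no replicate numbers and the deposited fit has none. Genes with few reads, such as KRT4, KRT32, KRT33B and KRT78, limit what depth can show.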

Other observations

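The lowest library of a group was the same for some keratins and not for others. KRT7, KRT19 and KRT81 were all lowest in the resistant library of size factor 1.19 and in the parental library of size factor 1.03, whereas KRT8 and KRT18 were lowest in the parental library of size factor 0.539 and KRT10, KRT16 and KRT80 in that of 1.08. Of 14 tested keratins with a mean normalized count of at least 50, 5 were lowest in the resistant library of size factor 1.19, 6 in the parental library of size factor 1.03 and 3 in both. This was noticed after the values were seen and was not tested. KRT10 had a coefficient of variation of 0.327% in resistant and 1.33% in parental libraries, the lowest of the keratins in both groups, beside 14.2% and 13.1% for KRT19. At the 517 to 1269 reads of KRT10 per library, counting error alone would usually give a wider spread. No trait of the gene is read from the closeness of these values.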
